A study of Bombus terrestris with 25 samples.

Results

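Trehalose is the sugar that most insects carry in their blood. Among the 3861 genes of the deposited count table for queens of the bumble bee Bombus terrestris, 4 are described here across 5 life stages. LOC100644462, LOC100646027 and LOC100644978 are annotated as facilitated trehalose transporter Tret1-like, and LOC100646078 is annotated as trehalase-like. The 4 were listed by identifier with results of these same libraries in view. LOC100644462 had been called lower in CO2-treated than in mated queens, LOC100646027 had been called higher in diapause than after CO2 treatment, and LOC100646078 had been called lower in diapause than after CO2 treatment. These 3 genes were chosen by those differences, which are given below as description. Their calls, where marked in a figure or followed across fits, are no test of those differences. The values that brought LOC100644978 into the set are not recorded, so its differences are not independent of the choice either.

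In insects the fat body, which combines the roles of liver and adipose tissue, makes trehalose and releases it into the hemolymph. Tret1, first described in an African midge, is a facilitated carrier that moves trehalose across the cell membrane in either direction along its gradient. Trehalase splits trehalose into glucose inside cells or at their surface, and trehalose is also known as a protectant of insects in the cold and in dormancy. The annotations rest on similarity of sequence, and no sugar or protein was measured here.

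The data were read counts of polyA RNA from 25 abdomens, each from 1 queen, that had been emptied of viscera with the fat body left in place. All queens had been mated to unrelated males, and they fell into 5 groups of 5. Mated queens were 5 to 10 days old and had no further treatment. CO2-treated queens had the same age, were anaesthetised with pure CO2 on the day of mating and again a day later, and were sampled 24 h after treatment. Diapause queens were kept at 4 C for 9 to 10 weeks from the day of mating and sampled at the end of the cold, at a labelled age of 3 months. Founder post CO2 queens, 1.5 months old, and founder post diapause queens, 4 months old, were sampled about 1 month after the respective treatment, once they laid eggs and had a colony. Except in diapause the queens were kept warm with unlimited sucrose and pollen. In comparisons with diapause queens, age, temperature and feeding changed together with the stage and cannot be told apart from it. Mated and CO2-treated queens shared age, warmth and food. Founders post CO2 shared warmth and food with them, but their age changed together with founding and cannot be told apart from it. The 2 founder groups differed in age as well as in route. Queens came from 6 genetic lines, and the dissected abdomen holds body wall and muscle beside fat body. In such bulk tissue, fewer cells of a type and less RNA per cell cannot be told apart.

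The libraries summed to between 534806 and 4057781 counts, and only mated replicate 2 and CO2-treated replicate 3 lay under 2432559. These 2 shallow libraries were the most alike of all pairs when thinned to 534806 counts, with a chi-square of 2.40 per degree of freedom where the next pair had 5.51. Diapause replicate 1 also stood apart, at -4.09 on the first principal component, while the remaining queens in diapause had -45.7 to -73.5. Vitellogenin-6-like, a yolk protein made by fat body, and a pair of hexamerin-like storage proteins had counts in all 25 libraries. Levels are given as CPM, the count divided by the TMM-scaled library total and multiplied by 1e6. Levels of the marker lists use the plain library total instead. A gene was called at an edgeR adjusted p under 0.05 over the 3793 genes tested. All 4 genes passed the filter on low counts.

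LOC100644462, a Tret1-like transporter, lies at Group15.6:1240218-1259028 on the scaffolds of the deposited table. Its level in the mated queens was 270.2, 108, 356, 656 and 443 CPM in replicates 1 to 5. CO2-treated queens had 21.3, 59.9, 93.7, 27.8 and 26.9 CPM. Every CO2-treated queen lay below every mated queen, and the closest values, 93.7 and 108, were those of the 2 shallow libraries. Diapause queens had 39.0, 116, 319.8, 271 and 56.8 CPM. Among founders the gene had 16.0, 38.7, 195, 61.2 and 58.0 CPM after CO2, and 55.0, 33.8, 47.65, 7.65 and 29.1 CPM after diapause. Diapause queens thus spread from the range of founders to that of mated queens, while no founder post diapause reached the lowest mated queen.

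LOC100646027, a second Tret1-like transporter, lies at Group7.3:10598329-10614463. In diapause it had 45.45, 249, 407, 410.1 and 142 CPM in replicates 1 to 5. Mated queens had 75.5, 104.5, 148.5, 174 and 108 CPM. The low diapause value belonged to replicate 1, the library that stood apart, and the other 4 diapause queens overlapped the mated range in 1 queen alone. CO2-treated queens had 24.8, 36.6, 85.9, 24.3 and 40.3 CPM. In founders post CO2 it had 18.9, 24.8, 89.2, 90.1 and 58.3 CPM, and in founders post diapause 23.5, 36.7, 26.2, 23.2 and 31.3 CPM. The founders post diapause were the most even group for this gene and lay below every diapause queen and every mated queen.

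LOC100644978, the third Tret1-like transporter, was counted on 2 scaffolds under 1 transcript accession, at Group14.3:777935-781747 and Group14.4:571892-575404. Its level was low before colony founding. Mated queens had 10.4, 13.25, 17.9, 10.3 and 8.08 CPM, CO2-treated queens 9.10, 13.2, 9.37, 6.201 and 5.19 CPM, and diapause queens 6.12, 11.1, 22.4, 8.53 and 8.39 CPM. These 15 values overlapped throughout and rested on 6 to 61 counts per library. Founders post CO2 had 231, 109.9, 206.8, 316 and 645 CPM, and founders post diapause 16.9, 445, 122, 106 and 282.5 CPM. Of the 10 founders, 9 lay far above every other queen, and only founder post diapause replicate 1, at 16.9 CPM from 36 counts, lay within the range of the other stages.

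LOC100646078, the trehalase-like gene, lies at Group14.7:3370347-3404389. In diapause it had 285, 203.5, 151, 210.5 and 107 CPM in replicates 1 to 5. CO2-treated queens had 760.5, 916, 801, 559 and 365 CPM, each above all 5 diapause queens. Mated queens had 363, 841, 245, 345 and 236 CPM, where the high value is that of the shallow replicate 2. In founders post CO2 the level was 284, 1145, 499, 606 and 587 CPM, and in founders post diapause 209, 448, 1110, 406 and 613 CPM. Replicate 1 was the lowest queen in both founder groups and overlapped the diapause range.

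**Figure D1:**
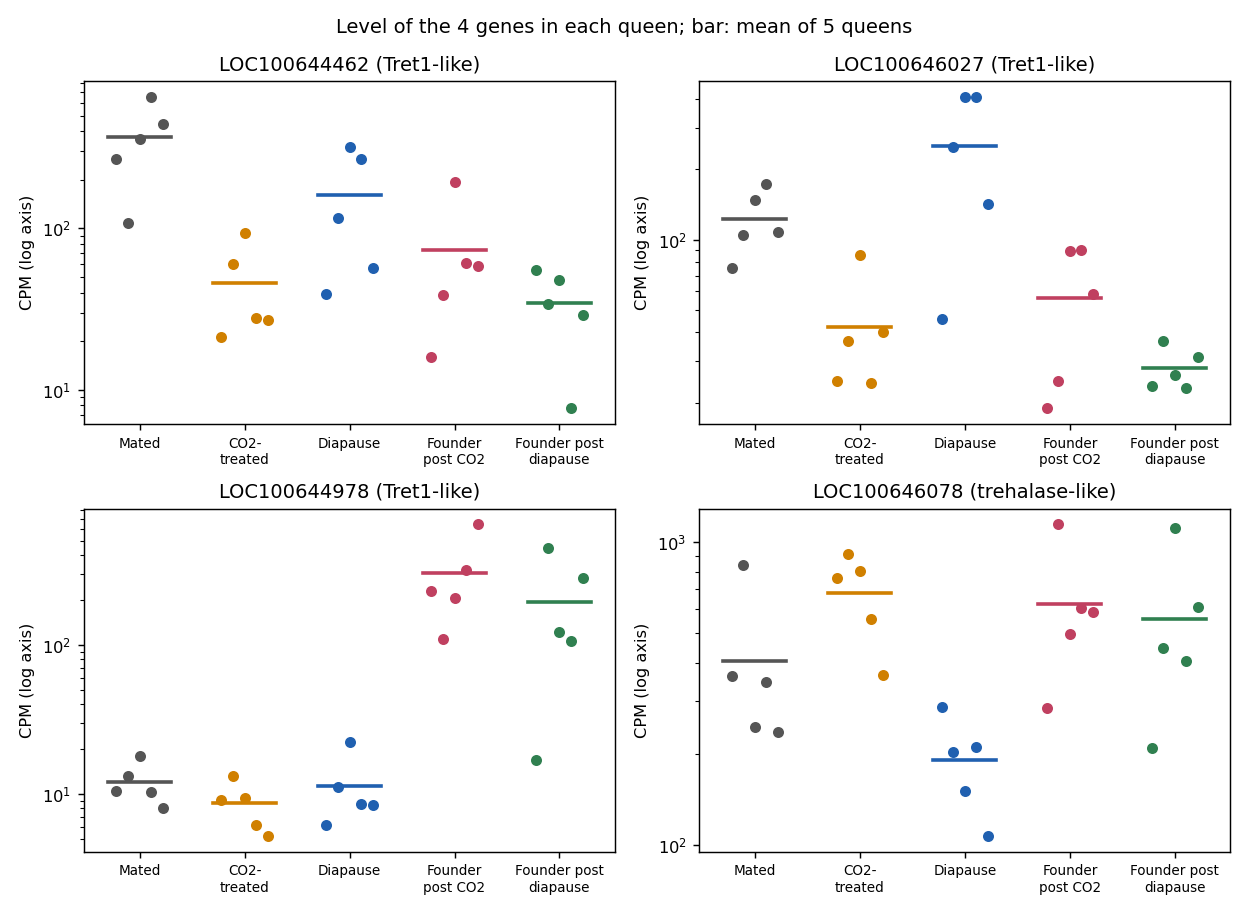
Level of the 4 genes in each of the 25 queens by group, in CPM on a log axis; points are queens and bars are means of 5 queens. LOC100644978 sits between 5.19 and 22.4 CPM in the 15 queens sampled before founding and at 106 CPM or more in 9 of the 10 founders.

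As group means, LOC100644462 stood at 367 ± 204 CPM in mated queens (SD, n = 5 in every group), 161 ± 128 in diapause, 73.7 ± 70.0 in founders post CO2, 45.9 ± 30.7 after CO2 treatment and 34.6 ± 18.3 in founders post diapause. No pair of neighbours in that order differed in the edgeR fit. LOC100646027 had its highest mean in diapause, 251 ± 161 CPM, then 122 ± 38.9 in mated queens, 56.2 ± 34.0 in founders post CO2, 42.4 ± 25.3 after CO2 treatment and 28.2 ± 5.77 in founders post diapause. Neighbours did not differ there either. LOC100644978 ran from 302 ± 205 CPM in founders post CO2 and 194.5 ± 169.6 in founders post diapause to 11.97 ± 3.77 in mated queens, 11.3 ± 6.46 in diapause and 8.62 ± 3.16 after CO2 treatment. Its only step between neighbours was that between founders post diapause and mated queens. LOC100646078 had 680 ± 218 CPM after CO2 treatment, 624 ± 318 in founders post CO2, 557 ± 341 in founders post diapause, 406 ± 250 in mated queens and 191.5 ± 67.1 in diapause. None of its neighbours differed.

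The first comparison asked what the CO2 anaesthesia, which is used to make queens skip diapause, changed within a day. Only 0.395% of the tested genes were called between CO2-treated and mated queens, and 0.975% had groups that did not overlap. LOC100644462 was 8.17-fold lower after CO2, a log2 fold change of -3.03 ± 0.69 (SE), which is the difference that put it on the list. LOC100646027 had a log2 fold change of -1.56 ± 0.50 (edgeR adjusted p = 0.320), with CO2-treated replicate 3 alone inside the mated range. It had -1.97 (edgeR adjusted p = 0.0303) without the 2 shallow libraries and diapause replicate 1, a fit that called 59 genes in place of 15. The CO2-treated libraries helped to choose LOC100646027 and LOC100646078, so the values of both genes here are not independent of the choice. The trehalase-like gene had 0.75 ± 0.43 and LOC100644978 -0.48 ± 0.59, with edgeR adjusted p of 1.00 for both.

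In cold diapause against mated queens none of the 4 genes was called, where 5.69% of the tested genes were and 3.03% had groups that did not overlap. The transporters LOC100646027 and LOC100644462 had opposite signs, 1.04 ± 0.48 (edgeR adjusted p = 0.204) and -1.20 ± 0.64 (edgeR adjusted p = 0.265) on the log2 scale. The trehalase-like gene had -1.08 ± 0.44 (edgeR adjusted p = 0.137). Without diapause replicate 1 the fit called 916 genes in place of 216, among them LOC100646027 at 1.26 and LOC100646078 at -1.34, with edgeR adjusted p of 0.0423 and 0.0471. Without that library and the 2 shallow ones LOC100646027 had 1.21 (edgeR adjusted p = 0.0462) and LOC100646078 -0.87 (edgeR adjusted p = 0.153). The trehalase-like gene had -0.63 without mated replicate 2 alone (edgeR adjusted p = 0.335). The diapause libraries helped to choose LOC100646027 and LOC100646078, and the mated libraries helped to choose LOC100644462. The values of these genes here are thus not independent of the choice. LOC100644978 had -0.08 ± 0.58 (edgeR adjusted p = 0.956).

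Diapause against CO2 treatment compares the 2 treatments that mated queens received before founding. LOC100646027 was 6.06-fold higher in the cold (log2 2.60 ± 0.51), and the trehalase-like gene 3.55-fold lower, by -1.83 ± 0.44. Both were chosen for these differences, beside 6.43% of all tested genes called and 2.66% with groups that did not overlap. For LOC100646027 the groups overlapped only through diapause replicate 1, at 45.45 CPM, and CO2-treated replicate 3, at 85.9 CPM. LOC100644462 had a log2 difference of 1.84 ± 0.66 (edgeR adjusted p = 0.0860), or 2.18 without the 2 shallow libraries and 2.01 without diapause replicate 1. It was chosen for its low level in these same CO2-treated libraries, so this difference is not independent of the choice. LOC100644978 had 0.40 ± 0.59 (edgeR adjusted p = 0.686).

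From diapause to egg-laying founder all 4 genes were called, 2 higher and 2 lower, in a comparison in which 80.9% of the tested genes were called and 48.7% had groups that did not overlap. A call on its own therefore sets the 4 genes apart from few others in this comparison. LOC100644978 rose 17.2-fold, by 4.11 ± 0.62 on the log2 scale (edgeR adjusted p = 1.72e-05). The trehalase-like gene rose 2.91-fold, by 1.54 ± 0.44 (edgeR adjusted p = 0.00331). LOC100646027 fell 8.88-fold, by -3.15 ± 0.52 (edgeR adjusted p = 3.60e-05), and was the only one of the 4 whose groups did not overlap. LOC100644462 fell 4.64-fold, by -2.21 ± 0.66 (edgeR adjusted p = 0.00462). The diapause libraries here are the same ones that helped to choose LOC100646027 and LOC100646078.

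From CO2 treatment to founder 1 of the 4 genes was called, beside 28.3% of all tested genes, and 16.0% had groups that did not overlap. LOC100644978 rose 35.3-fold, by 5.14 ± 0.66 on the log2 scale (edgeR adjusted p = 1.98e-05), and its groups did not overlap. LOC100644462 had 0.72 ± 0.64 (edgeR adjusted p = 0.378), or -0.02 without founder post CO2 replicate 3. LOC100646027 had 0.45 ± 0.49 (edgeR adjusted p = 0.466). The trehalase-like gene had -0.12 ± 0.43 (edgeR adjusted p = 0.824). The CO2-treated libraries here helped to choose LOC100644462, LOC100646027 and LOC100646078.

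The 2 founder groups, which reached egg laying by different routes, showed no call in the 4 genes or in any other gene, 0.0% of those tested with edgeR. At an unadjusted p under 0.05 the fit held 273 genes, DESeq2 called 8, and 0.29% of genes had groups that did not overlap. Log2 differences, founder post diapause less founder post CO2, were -1.09 ± 0.64 for LOC100644462 (-0.34 without founder post CO2 replicate 3), -0.997 ± 0.488 for LOC100646027, -0.63 ± 0.54 for LOC100644978 and -0.16 ± 0.43 for LOC100646078. With the spread of these queens the 95% interval for LOC100646078 still ran from -1.06 to 0.73.

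The change to founder was then compared between the routes, as the change from diapause less the change from CO2 treatment, a difference called in 2.43% of the tested genes. LOC100646027 had -3.60 ± 0.70 on the log2 scale, where it fell by 3.15 from diapause and had 0.45 from CO2 treatment. The same value is the difference between the founder groups, -0.997, less that between diapause and CO2 treatment, 2.60. The second part chose the gene, so no p is given, though this gene alone of the 4 was called. With genetic line as a block the value was -3.32 and the call was lost. This contrast contains the difference between diapause and CO2 treatment for which LOC100646027 and LOC100646078 were chosen, and the CO2-treated libraries on which LOC100644462 was chosen, so none of these values is independent of the choice. LOC100644462 had -2.93 ± 0.92 (edgeR adjusted p = 0.0645). LOC100646078 had 1.66 ± 0.61 (edgeR adjusted p = 0.0965). LOC100644978 had -1.03 ± 0.80 (edgeR adjusted p = 0.386), so a different rise by route was not detectable for it.

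**Figure D2:**
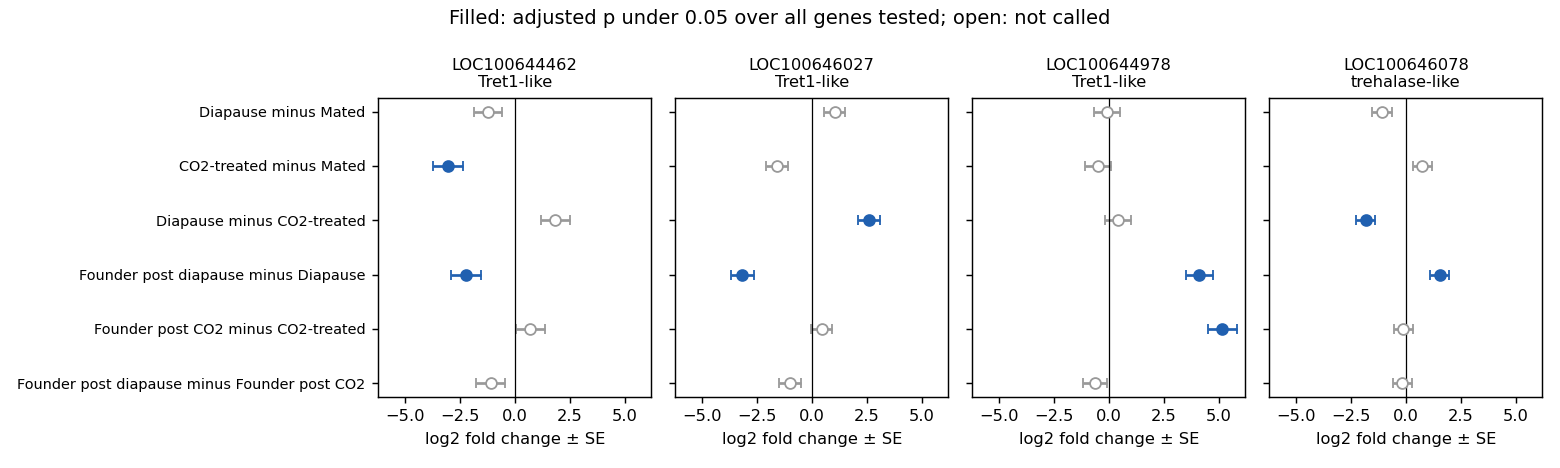
Log2 fold change with SE of the 4 genes in the 6 comparisons, from the edgeR fit of all 25 libraries; filled points passed an adjusted p of 0.05 over all genes tested. LOC100644978 stands at 4.11 and 5.14 in the changes to founder, and LOC100646027 at -3.15 in the change from diapause. Filled points of the differences that chose LOC100644462, LOC100646027 and LOC100646078 are description and no test.

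The remaining contrasts of the fit place founders against the stages that they did not come from. Against mated queens, where 39.2% of tested genes were called for founders post CO2 and 66.4% for founders post diapause, LOC100644462 was lower by -2.32 ± 0.66 and -3.41 ± 0.70 (edgeR adjusted p = 0.0106 and 0.000543). The first of these was -3.11 without founder post CO2 replicate 3. LOC100646027 was lower in founders post diapause, by -2.11 ± 0.50 (edgeR adjusted p = 0.00164), and had -1.12 ± 0.49 in founders post CO2 (edgeR adjusted p = 0.0669). LOC100644978 was higher in both, by 4.66 ± 0.64 and 4.02 ± 0.62 (edgeR adjusted p = 1.65e-05 and 4.67e-05). The trehalase-like gene did not pass against mated queens, with 0.62 ± 0.43 and 0.46 ± 0.43 (edgeR adjusted p = 0.234 and 0.337). In diapause against founders post CO2, called for 68.8% of tested genes, LOC100646027 was higher by 2.15 ± 0.50, LOC100646078 lower by -1.70 ± 0.44 and LOC100644978 lower by -4.74 ± 0.64 (edgeR adjusted p = 0.00121, 0.00260 and 1.24e-05). In founders post diapause against CO2-treated queens, called for 60.8%, only LOC100644978 passed among the 4, at 4.51 ± 0.64 (edgeR adjusted p = 8.47e-05). These contrasts share their libraries with those above and are not separate evidence. The mated libraries helped to choose LOC100644462, and the diapause libraries helped to choose LOC100646027 and LOC100646078. Differences of these genes from those stages are therefore not independent of the choice.

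Levels of different genes were compared per kilobase (kb) of counted interval. Among the 19 tested sugar transporters LOC100646027 ranked 2 in diapause, with 126 CPM per kb or 21.7% of their summed level, and 3 in mated queens, with 61.3 CPM per kb or 11.6%. It ranked 10 in founders post diapause, with 14.2 CPM per kb. LOC100644978 moved the other way, from rank 19 in mated and CO2-treated queens to rank 4 in founders post CO2, with 49.5 CPM per kb. LOC100644462 ranked 4 in mated queens, with 44.4 CPM per kb, and 18 in founders post diapause, with 4.20 CPM per kb. The Tret1-like LOC100647601 had the highest mean per kb in mated and diapause queens, at 146 ± 49.9 and 148 ± 40.9 CPM per kb. After CO2 treatment its mean of 100.3 ± 75.8 CPM per kb did not differ beyond the spread from the 89.9 ± 15.1 of the SWEET1-like LOC100649324. In founders LOC100649324, of a family of sugar uniporters, had the highest mean, at 155 CPM per kb after CO2 and 289 after diapause.

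The table named 18 genes Tret1-like, of which 17 were tested, the 3 members included. In the change from diapause to founder 7 were higher, 5 lower and 5 not called, and from CO2 treatment to founder 5 were higher, 1 lower and 11 not called. Over all tested genes 80.9% and 28.3% were called in these comparisons, so the counts do not set the family apart. Among the 14 that are no members the counts were 6 higher and 3 lower, and 4 higher and 1 lower. Those lower after diapause were LOC100650588 at -3.16 ± 0.53, LOC100649149 at -2.63 ± 0.48 and LOC100647601 at -1.49 ± 0.65 on the log2 scale. Those higher included LOC100644539 at 2.69 ± 0.58, LOC100644497 at 2.25 ± 0.70 and LOC100648799 at 2.11 ± 0.45. With both SWEET1-like genes, LOC100649324 at 1.92 ± 0.41 and LOC100647403 at 1.77 ± 0.34, the 19 sugar transporters had a median log2 change of 1.47 in that comparison, beside 0.28 over all tested genes. The edgeR adjusted p of the genes named here ran up to 0.0384, for LOC100647601.

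The table held a second trehalase-like gene, LOC100647648, which is no member. Its level was 903 ± 232 CPM in mated queens, 890 ± 205 after CO2 treatment, 1391 ± 360 in diapause, 333 ± 223 in founders post CO2 and 236 ± 131 in founders post diapause (SD, n = 5 each). The 2 trehalase-like genes had opposite signs in the change from diapause to founder, with a fall of LOC100647648 by -2.56 ± 0.49 (edgeR adjusted p = 0.000128) beside the rise of LOC100646078 by 1.54. From CO2 treatment to founder LOC100647648 fell by -1.42 ± 0.47 (edgeR adjusted p = 0.0305). Per kb it was the more abundant of the pair in diapause, at 218 against 41.2 CPM per kb, and the less abundant in founders post diapause, at 36.9 against 120 CPM per kb.

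**Figure D3:**
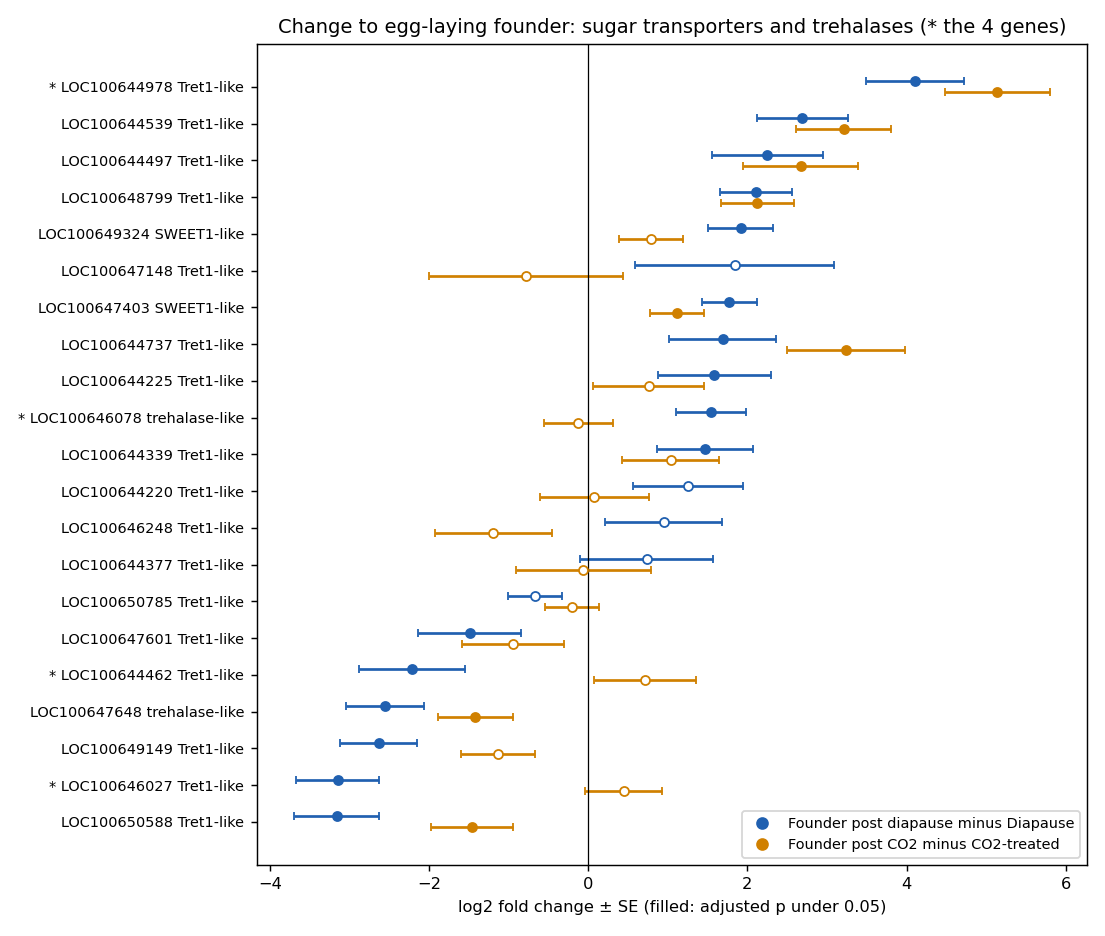
Log2 fold change with SE from each treatment to founder for the tested sugar transporters and both trehalase-like genes, sorted by the change from diapause; filled points passed an adjusted p of 0.05 and asterisks mark the 4 genes. From diapause, LOC100650588 at -3.16 and LOC100646027 at -3.15 lie lowest and LOC100644978 lies highest at 4.11.

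Genes around trehalose were found by search patterns on product names, chosen with results of these data known. No gene of trehalose synthesis or of the glycogen pattern was matched, and these steps are not analysed here. Both genes of gluconeogenesis fell from diapause to founder, where 80.9% of all tested genes were called, so the count does not set them apart. Phosphoenolpyruvate carboxykinase (PEPCK), which opens gluconeogenesis, fell by -6.18 ± 1.14 on the log2 scale, and fructose-1,6-bisphosphatase 1-like (LOC100650704), which acts near its end, by -2.63 ± 0.89 (edgeR adjusted p = 8.89e-05 and 0.00983). From CO2 treatment to founder PEPCK fell by -6.42 ± 1.16 (edgeR adjusted p = 0.000527), while LOC100650704 had -1.65 ± 0.86 (edgeR adjusted p = 0.131).

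Of 6 tested genes that handle hexose phosphates, 3 were higher and 1 lower in founders post diapause than in diapause, where 80.9% of all tested genes were called. The counts of the polyol and hormone lists below stand beside the same share. Hexokinase type 2-like (LOC100644228), which phosphorylates the glucose that trehalase releases, fell by -2.17 ± 0.39 on the log2 scale. Glucose-6-phosphate isomerase-like (LOC100643448) rose by 1.95 ± 0.44 and phosphoglucomutase-2-like (LOC100648849) by 1.71 ± 0.46. Their edgeR adjusted p were 7.29e-05, 0.000504 and 0.00221. The pattern for polyol enzymes caught 8 genes, 2 higher and 2 lower, and both genes that were lower, LOC100651833 and LOC100648090, are diacylglycerol kinases and no enzymes of polyols. Sorbitol dehydrogenase-like (LOC100643624), which links sorbitol and fructose, rose by 2.58 ± 0.57 (edgeR adjusted p = 0.000443). Of 8 genes of insulin and related hormone signalling, 1 was higher and 5 lower, among them the insulin-like receptor-like gene LOC100650952 at -3.10 ± 0.58 (edgeR adjusted p = 9.88e-05).

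Counts in the table were given per exon-sized interval, so each difference could be followed along its gene. In the change from diapause to founder all 6 intervals of LOC100644462 and all 6 of LOC100646027 were lower, and all 4 of LOC100644978 and all 10 of LOC100646078 were higher. The log2 ratios of group means ran from -3.75 to -2.77 in LOC100646027 and from 1.39 to 1.82 in LOC100646078. In LOC100644978 they ran from 4.04 to 4.81 from diapause and from 4.88 to 5.42 from CO2 treatment. Intervals are parts of the same reads that make the sums, not replicates. No other gene of the table lay inside the span of any of the 4 genes.

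**Figure D4:**
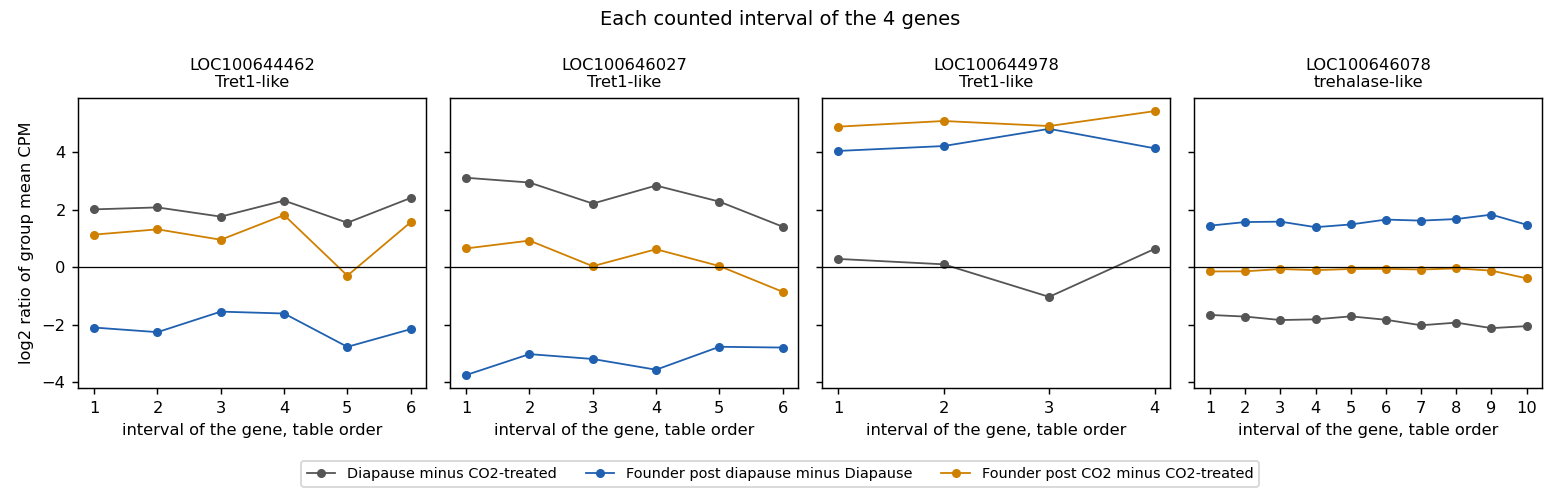
Log2 ratio of group mean CPM for each counted interval of the 4 genes, in table order, for 3 comparisons; lines join the intervals of a gene. In the change from diapause to founder the 10 intervals of LOC100646078 lie between 1.39 and 1.82 and the 4 of LOC100644978 between 4.04 and 4.81.

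The 2 scaffolds of LOC100644978 gave similar mean levels in each group, while single founders differed more and in both directions. Group14.3 and Group14.4 had means of 6.63 and 5.34 CPM in mated queens, 5.62 and 5.69 in diapause, 137 and 165 in founders post CO2, and 92.5 and 102 in founders post diapause. In the same order, founder post CO2 replicate 3 had 136.7 and 70.15 CPM, and replicate 5 had 263.2 and 381.8 CPM. Whether they hold pieces of 1 gene or near copies cannot be told apart from the counts, and reads shared with other Tret1-like genes could have been split among them. The level of this gene is uncertain for that reason.

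Within LOC100644462 the intervals did not fall alike, a pattern chosen after the values were seen. Its longest interval, of 5331 bases and listed under a second transcript accession, held 50.1 ± 10.8% of the gene's counts in mated queens, 45.5 ± 10.7% after CO2 treatment and 43.0 ± 3.64% in diapause (SD, n = 5 each). In founders the share was 29.3 ± 5.79% after CO2 and 31.1 ± 8.89% after diapause. From CO2 treatment to founder the mean share differed by -16.2 percentage points, and the groups did not overlap. From diapause to founder it differed by -11.9 points, and the groups overlapped. Since the interval was picked for this difference, no test is given. Shares rested on 30 to 1599 counts per queen, and the exact binomial 95% intervals, which cover counting error only, ran from 17.3 to 52.8% for the founder with 30.

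**Figure D5:**
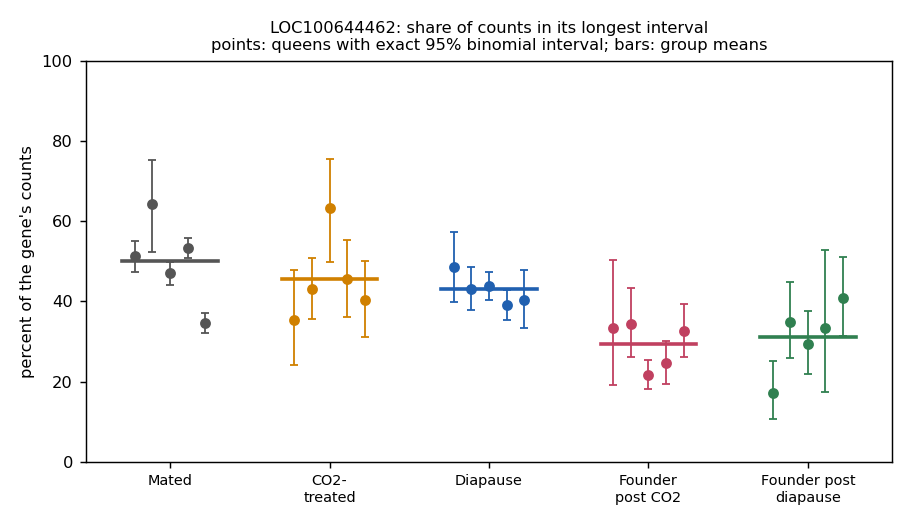
Share of the counts of LOC100644462 in its longest interval for each queen, in percent, with exact 95% binomial intervals and bars for group means. The 5 founders post CO2 sit between 21.6 and 34.4%, below the CO2-treated queens at 35.3 to 63.3%.

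Genes with the most similar pattern over the 25 queens were taken by Pearson's correlation of log2 CPM, as a description in which the shared stages weigh heavily. LOC100644462 and LOC100646027 were alike, with r of 0.80, and 0.76 for deviations from the group means. LOC100644978 was most like ras-GEF domain-containing family member 1B-like (LOC100645439, r of 0.98), aminopeptidase N-like (LOC100642906, 0.97) and the hypothetical LOC100648033 (0.96). LOC100646027 was also close to a probable G-protein coupled receptor (LOC100647263, 0.89), and to LOC100648499 (0.89) and LOC100649756 (0.88). LOC100644462 was closest to LOC100644306 (0.80), with LOC100644292 next after LOC100646027 (0.80). The trehalase-like gene was closest to LOC100649983 (0.83), to the NADPH--cytochrome P450 reductase-like gene LOC100652262 (0.83) and to LOC100650251 (0.82).

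Markers of other tissues also differed between the stages. Marker levels here and in the next paragraph are CPM of the plain library total, without TMM scaling. The summed level of 23 genes whose names match gut enzymes ran from 3348 to 5558 CPM in mated queens, 4446 to 22690 after CO2 treatment, 2386 to 9742 in diapause, 6812 to 14360 in founders post CO2 and 6456 to 35920 in founders post diapause. The list holds chymotrypsin inhibitor-like (LOC100645263), an inhibitor and no enzyme. It had medians of 2004, 2111 and 1837 CPM in mated, CO2-treated and diapause queens, beside median sums of 4998, 5441 and 3714 CPM. In founders post CO2 and post diapause it had 2201 and 2686 CPM, beside 10680 and 12670 CPM. From diapause to founder 14 of the 23 were called higher and 1 lower, and from CO2 treatment 5 higher, beside 80.9% and 28.3% of all tested genes called in either direction. The gut-list aminopeptidase N-like gene LOC100642906, named above among the genes most like LOC100644978, had medians of 57.3, 34.7 and 55.6 CPM in mated, CO2-treated and diapause queens, and 521 and 410.1 CPM in founders post CO2 and post diapause. On plain totals founder post diapause replicate 1 had the lowest LOC100644978 level among founders, 10.24 CPM. Its gut sum of 6456 CPM was the lowest of its group, beside 6887 CPM in replicate 4. TMM scaling put LOC100644978 at 16.9 CPM in replicate 1 and left it near 106 CPM in replicate 4. Which of these queens had the lower gut sum thus depends on the scale. Founder post CO2 replicate 5 had the highest LOC100644978 level and the lowest gut sum of its group. The list's part in the rise of LOC100644978 was not tested, and the carboxypeptidase B-like gene LOC100644223 was at 0 in 1 of 25 libraries.

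Muscle markers, 7 genes, summed to 12900 to 32720 CPM over mated, CO2-treated and diapause queens, and to 1732 to 12600 and 5774 to 8371 CPM in founders post CO2 and post diapause. Fat body markers, 4 genes, ran from 421 to 39020 CPM in mated queens, 492 to 21260 after CO2 treatment, 3545 to 11800 in diapause, 798 to 4613 in founders post CO2 and 126 to 1893 in founders post diapause. The name pattern also caught vitellogenin receptor-like (LOC100649042), a receptor and not the yolk protein. That gene had medians of 53.3 CPM in diapause and 1065 CPM in founders post diapause. Every founder post diapause lay below every diapause queen in both sums, in the comparison in which LOC100644462 and LOC100646027 fell. Of the genes in these sums, 1 of the 4 fat body markers was called higher and 2 lower, and 1 of the 7 muscle markers higher and 4 lower. In that comparison 80.9% of all tested genes were called, so these counts do not set the markers apart. Oenocyte and epidermis markers, 31 genes, ran from 8603 to 24190 CPM in diapause and from 16850 to 55410 CPM in founders. Sums for germ line and ovary (3 genes) ran from 214 to 532 CPM in mated queens, 194.5 to 503 after CO2 treatment and 316 to 828.5 in diapause. In founders they ran from 469 to 3046 CPM after CO2 and from 61.4 to 1223 CPM after diapause. Sums for neurons (8 genes) lay between 283 and 861 CPM, and those for hemocytes (2 genes) between 189 and 6448 CPM. From CO2 treatment to founder 2 of the 6 tested neuron genes were called higher and 4 lower, beside 28.3% of all tested genes called. The name pattern for syntaxin-1 also caught syntaxin-12-like, syntaxin-17-like and syntaxin-18-like, which are other syntaxins. In this comparison the median of syntaxin-12-like went from 74.8 to 129 CPM and that of syntaxin-17-like from 70.95 to 102 CPM. Neurexin-2-alpha-like, synapsin-like, synaptotagmin 1-like and synaptotagmin-7-like had lower medians in these founders. The part of these lists in the differences of the 4 genes was not tested.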

How the data were processed

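Trimmomatic, TopHat and DESeq are named, without versions, per the submitters' processing notes. The deposited table holds raw read counts per exon-sized interval, which the authors made; not given in the sources used here are the genome build, counting tool, strand setting and treatment of multiply mapped reads, so antisense or overlapping transcripts cannot be told apart. The table covers part of the transcriptome, so CPM are relative to its counts. Interval starts, counted from 0 in the table, are printed from 1. Counts were summed per gene. Each library is 1 queen, grouped by the labels.

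Filtering with filterByExpr (minimum count 10, minimum total 15) kept 3793 genes and removed 68. One edgeR 4.0.16 quasi-likelihood fit in R 4.3.3 (TMM, a term per group, 20 residual degrees of freedom) gave two-sided contrasts with Benjamini-Hochberg adjustment. The coefficient of variation between queens was 51.4%. In simulated data for CO2-treated minus mated queens, run on 3793 genes, 79% of genes changed 4-fold and 18.2% of those changed 2-fold were recovered. The simulation used mated means in all groups and a spread set by the trend over genes. It held no spread particular to a gene and no deviant library, so these shares are no measure of power for single genes here. Alternatives were RLE scaling, DESeq2 1.42.0, no filter, genetic line as a replicate block, main scaffold only, and libraries left out.

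Members, gene lists and the libraries left out were chosen with earlier results of these data known. Named were the 4 members, the tested sugar transporters and trehalase-like genes, up to 3 called genes of each other pathway list, and the 3 genes most like each member; transporters without a value of their own in the text stand in the family plot. The marker lists were fat body, gut, muscle, germ line and ovary, neuron, hemocyte, and oenocyte and epidermis.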

Additional observations from a re-analysis of the deposited data

Results flagged for a closer look

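In 3 of the 20 sets of 5 queens, formed by gene and group, 1 queen lay far from the other 4 by Dixon's ratio of gap to range, for which chance flags about 1 in 20 sets. LOC100644462 had 194.6 CPM in founder post CO2 replicate 3, with a ratio of 0.747 against a critical value of 0.71. LOC100646027 had 85.9 CPM in CO2-treated replicate 3, with a ratio of 0.741, and LOC100646078 had 840.7 CPM in mated replicate 2, with a ratio of 0.790. The last 2 queens are the 2 libraries of lowest total. For LOC100646027 the change to founder had a difference of -3.60 on the log2 scale between the routes. That contrast contains the difference for which the gene was chosen, so it is description and no test.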

How the results depend on the processing

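Of 308 log2 fold changes of the 4 genes under settings other than leaving out single libraries, 292 kept direction and side of the threshold. LOC100644978 in diapause minus mated changed sign, to 0.054, on its main scaffold only and to 0.053 without diapause replicate 1 and the 2 shallow libraries. The cause of the changes below was not tested. Calls of LOC100644462, LOC100646027 and LOC100646078 that use diapause or CO2-treated queens are not independent of their choice. Nor are calls of LOC100644462 that use mated queens. With genetic line as a replicate block, LOC100644462 in CO2-treated minus mated (-3.25) and LOC100646027 in the difference between routes (-3.32) lost their calls, and LOC100646027 in founder post CO2 minus mated gained one (-1.46). Queens of 1 line in different groups deviated together with a mean r of 0.03, against -0.0046 for different lines, so line was not taken as pairing the queens. DESeq2 called LOC100644462 in diapause minus CO2-treated (1.88) and in the difference between routes (-2.86), as did leaving out the 2 shallow libraries (2.18 and -3.30) and leaving out these with diapause replicate 1 (2.42 and -3.53). The last setting also called LOC100646027 in diapause minus mated (1.21) and in CO2-treated minus mated (-1.97), LOC100646078 in the difference between routes (1.77), and 2 contrasts of founders post CO2, LOC100646027 against mated (-1.19) and LOC100644462 below diapause (1.41).

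Leaving out each library in turn kept 1064 of 1100 values. LOC100644462 ran from -3.41 to -2.71 in CO2-treated minus mated, with its call lost in 12 of 25 fits, 1.42 to 2.18 in diapause minus CO2-treated, -0.023 to 1.09 in founder post CO2 minus CO2-treated, 0.71 to 1.93 in diapause minus founder post CO2, and -3.30 to -2.25 between routes. LOC100646027 ran from 0.79 to 1.26 in diapause minus mated and from -1.37 to -0.90 in founder post CO2 minus mated. LOC100646078 ran from -1.34 to -0.63 in diapause minus mated, -2.09 to -1.70 in diapause minus CO2-treated, where the call was lost in 5 fits (those lacking diapause replicate 2, 3 or 5, or CO2-treated replicate 1 or 2), -0.46 to 0.061 in founder post CO2 minus CO2-treated, -0.56 to 0.17 between the founder groups, and 1.23 to 1.9998 between routes. LOC100644978 ran from -0.48 to 0.13 in diapause minus mated. The share of the long interval stayed lower in founders, by -18.8 to -11.8 points after CO2 and -14.4 to -8.40 after diapause.

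Counts over all genes moved more. For the fit, DESeq2, the block and the fit without 3 libraries they were 216, 457, 51 and 1192 in diapause minus mated, 15, 42, 0 and 59 in CO2-treated minus mated (39 without the 2 shallow libraries), 244, 509, 130 and 1383 in diapause minus CO2-treated (143 with no filter), and 92, 484, 3 and 1388 between routes (246 without the 2 shallow libraries, 55 with no filter). Leaving out 1 library gave 91 to 916, 0 to 41, 64 to 1091 and 9 to 1005 in these 4, and the highest count was that without diapause replicate 1 except in CO2-treated minus mated, where it was that without mated replicate 2. In founder post CO2 minus CO2-treated 1075 became 600 without the 2 shallow libraries and 670 without 3, and 491 to 1342 without 1 library. For sugar transporters the most called by any of these settings were 2 in CO2-treated minus mated, 6 in diapause minus CO2-treated, 4 in diapause minus mated and 7 between routes, all without 3 libraries, against 1, 1, 0 and 1 in the fit. Of the 3 genes most like LOC100646027 and LOC100644978, 1 each stayed by Spearman's rho. Scaling by RLE moved the median of all genes by at most 0.09. Levels of LOC100644978 before founding rest on few counts. Age cannot be told apart from founding, and in comparisons with diapause queens age, cold and stage cannot be told apart.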
